A study of Mus musculus with 6 samples.

Results

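Germline stem cells (GSC), the cultured counterpart of the spermatogonial stem cells of the testis, were compared with a reference library for DNA methylation, position by position. The comparison comprised every position listed for the single GSC library: 255689 of the 891636 rows listed over the 5 libraries with tables. Positions 1 bp from a listed position of the opposite direction were left out, which removed 35377 positions (13.8%) and retained 220312. The tables do not name the reference, and it is taken here to be the embryonic stem cell (ESC) library, the only sample without tables.

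The study profiled mouse cells in culture by reduced representation bisulfite sequencing, an assay of cytosine methylation in the CpG-rich part of a genome cut with an enzyme. Besides GSC (1 library), it holds 2 lines of induced pluripotent stem cells made from GSC (iPSC), 2 lines of germline-derived pluripotent stem cells (gPSC) and ESC (1 library), the lines of a kind being independent. All lines are of the OG2 strain, which carries a transgenic reporter driven by regulatory sequence of Pou5f1, so that its copies can add reads there. The labels give neither passage nor culture conditions. The tables list single positions with a difference in percentage points, its p and its q, and neither coverage nor methylation levels. No listed q exceeded 0.01, and no listed difference was smaller than 25 points in size. The q compares the reads of 2 libraries, GSC has no second line, and no comparison below has a replicate check on the GSC side. A position that is not listed can be unchanged or unmeasured, the depth is unknown, and the identity of the cells cannot be checked against marker expression with these data.

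Methyl groups in mammalian DNA sit mainly on the cytosine of CpG dinucleotides. A CpG reads the same on both strands, and the maintenance methyltransferase copies the mark from the old strand to the new one, so that the cytosines of both strands usually share their state. CpG islands at gene starts are mostly free of methylation, while the bodies of genes are mostly methylated. Male germ cells carry a highly methylated genome with the imprints of the father, and genes of the pluripotency network are known to gain methylation as cells leave pluripotency.

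The listed positions include the cytosine of either strand, so each CpG can be listed at its C (the strand of the reference genome) and at its G (the opposite strand). Hyper and hypo denote higher and lower methylation in GSC than in the reference. RefSeq promoter windows (GRCm38.p6, 250 bases before to 50 after a gene start) illustrate the patterns, and are printed on the strand of the gene. The first is Pou5f1, the POU factor that sustains pluripotency, at its outermost start (chr17:35505782-35506081, plus strand) and at a start inside the gene (chr17:35508557-35508856, plus strand). Capitals mark the hyper positions, which lie on both strands: 3 C and 4 G in each window, with differences of 41.7 to 88.9 points at the outermost start and 49.2 to 100 points at the inner one. The outermost window also holds 1 hypo position, which is not marked.
Pou5f1, outermost start, hyper positions in capitals: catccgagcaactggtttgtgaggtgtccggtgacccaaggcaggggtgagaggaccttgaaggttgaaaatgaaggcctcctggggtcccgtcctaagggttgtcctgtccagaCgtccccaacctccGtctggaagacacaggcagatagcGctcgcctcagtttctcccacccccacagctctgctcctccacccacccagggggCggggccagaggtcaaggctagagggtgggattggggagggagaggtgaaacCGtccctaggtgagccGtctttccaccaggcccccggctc
Pou5f1, inner start, hyper positions in capitals: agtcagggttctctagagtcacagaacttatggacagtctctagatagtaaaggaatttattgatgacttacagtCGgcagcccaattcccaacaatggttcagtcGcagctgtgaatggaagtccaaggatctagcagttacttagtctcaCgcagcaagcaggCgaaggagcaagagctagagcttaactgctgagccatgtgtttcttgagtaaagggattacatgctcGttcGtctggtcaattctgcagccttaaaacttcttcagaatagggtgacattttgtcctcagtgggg

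Papolb, a poly(A) polymerase of the testis that lies within the body of Radil, is shown because it held the most CpGs that were hyper on both strands of any promoter other than those of predicted genes, a choice made after the values were seen (chr5:142530027-142530326, minus strand). Its window holds 7 C and 9 G in capitals, all hyper, with 27.1 to 93.3 points.
Papolb, hyper positions in capitals: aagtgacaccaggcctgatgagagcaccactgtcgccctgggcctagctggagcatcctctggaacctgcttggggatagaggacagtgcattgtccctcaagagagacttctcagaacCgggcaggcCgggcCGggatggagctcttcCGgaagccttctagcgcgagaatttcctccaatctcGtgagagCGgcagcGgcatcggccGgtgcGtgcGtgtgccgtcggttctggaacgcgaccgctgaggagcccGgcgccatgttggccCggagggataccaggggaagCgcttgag

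Phc2, a Polycomb subunit, is shown for the opposite pattern (chr4:128727321-128727620, plus strand), also chosen after its values were seen. All 19 hyper positions of this window are C, with a mean difference of 41.5 points, and all 19 hypo positions are G, with a mean of −42.5 points. The same window is printed with the hyper and then with the hypo positions in capitals.
Phc2, hyper positions in capitals: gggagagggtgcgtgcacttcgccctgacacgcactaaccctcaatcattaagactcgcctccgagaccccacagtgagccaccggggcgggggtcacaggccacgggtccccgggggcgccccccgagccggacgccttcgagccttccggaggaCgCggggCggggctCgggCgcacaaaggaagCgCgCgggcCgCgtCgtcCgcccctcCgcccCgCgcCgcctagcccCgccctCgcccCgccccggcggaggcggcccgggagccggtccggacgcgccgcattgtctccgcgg
Phc2, hypo positions in capitals: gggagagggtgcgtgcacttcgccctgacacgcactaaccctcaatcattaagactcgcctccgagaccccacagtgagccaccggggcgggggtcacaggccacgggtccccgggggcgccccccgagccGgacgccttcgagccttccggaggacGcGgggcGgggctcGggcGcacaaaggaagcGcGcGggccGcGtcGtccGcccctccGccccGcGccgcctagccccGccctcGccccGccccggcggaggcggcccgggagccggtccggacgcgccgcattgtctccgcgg

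Atp2b1, a calcium pump of the plasma membrane, shows hypo positions on 1 strand (chr10:98914902-98915201, plus strand). It held 19 hypo positions, all of them C, between −56.0 and −29.4 points, and the G of the same CpGs is not listed.
Atp2b1, hypo positions in capitals: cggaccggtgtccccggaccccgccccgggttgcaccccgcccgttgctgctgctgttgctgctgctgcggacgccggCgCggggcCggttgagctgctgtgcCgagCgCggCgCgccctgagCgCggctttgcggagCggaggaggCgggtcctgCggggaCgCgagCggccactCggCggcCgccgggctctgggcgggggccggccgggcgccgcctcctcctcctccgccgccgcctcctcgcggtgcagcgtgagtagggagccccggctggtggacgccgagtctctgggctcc

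These patterns recurred over the genome. Both positions of a CpG were listed for 28431 CpGs. Of these, 10981 (38.6%) were hyper on both strands, 27 (0.0950%) were hypo on both strands, and 17423 (61.3%) had opposite directions on their strands. Among CpGs with both positions listed, higher methylation in GSC was thus often found on both strands, and lower methylation almost never. Most listed positions have no partner in the same direction. Of 194161 retained hyper positions, 21962 lay in CpGs hyper on both strands, and of 26151 hypo positions, 54 lay in CpGs hypo on both.

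In CpGs with opposite directions the differences mirrored each other. Their sum lay within 5 points of 0 in 87.4% of them, with a median absolute sum of 0.681 points, and the C was the hyper side in 50.1%. In CpGs that were hyper on both strands the sum of both differences had a median of 83.8 points and was at most 105 points in 97.5%, as the upper right triangle in the plot of C against G differences shows. The cause of the mirrored differences and of the bound on the sums was not tested. No level is listed, so the sign of the differences could not be set against one.

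**Figure D1:**
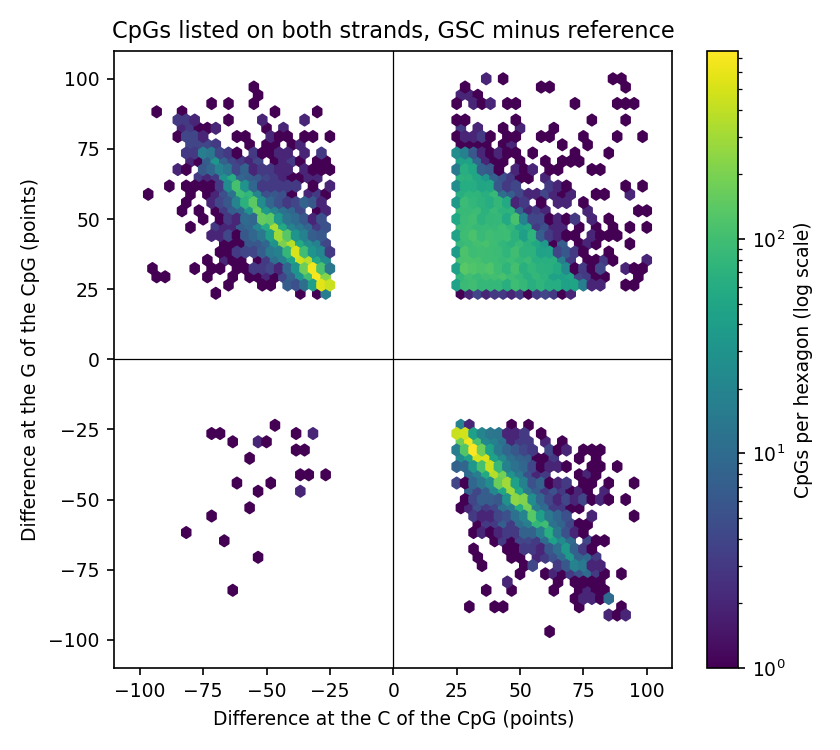
Difference from the reference at the C (horizontal axis, points) against the difference at the G (vertical axis, points) of the 28431 CpGs listed on both strands in GSC, coloured by the number of CpGs per hexagon on a log scale. The 17423 opposite CpGs follow the diagonal where both differences sum to 0, the 10981 hyper CpGs fill a triangle, and the lower left corner holds the 27 hypo CpGs.

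Among the retained positions, 194161 (88.1%) were hyper and 26151 hypo. The median difference was 69.1 points for hyper and −60.0 points for hypo positions. Differences of 90 points or more made up 24.9% of hyper positions (48438) and 10.8% of hypo positions (2820), and 29026 hyper positions (14.9%) and 2124 hypo positions (8.12%) differed by exactly 100 points. The share of hyper positions was 92.2% on the X chromosome (6457 hyper, 549 hypo) and lay between 85.9% and 89.6% on the autosomes. On the Y chromosome it was 97.2% (343 hyper, 10 hypo). The X share is not particular to GSC: it was 91.5%, 91.4%, 94.7% and 95.3% in iPSC 1, iPSC 2, gPSC 1 and gPSC 2.

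**Figure D2:**
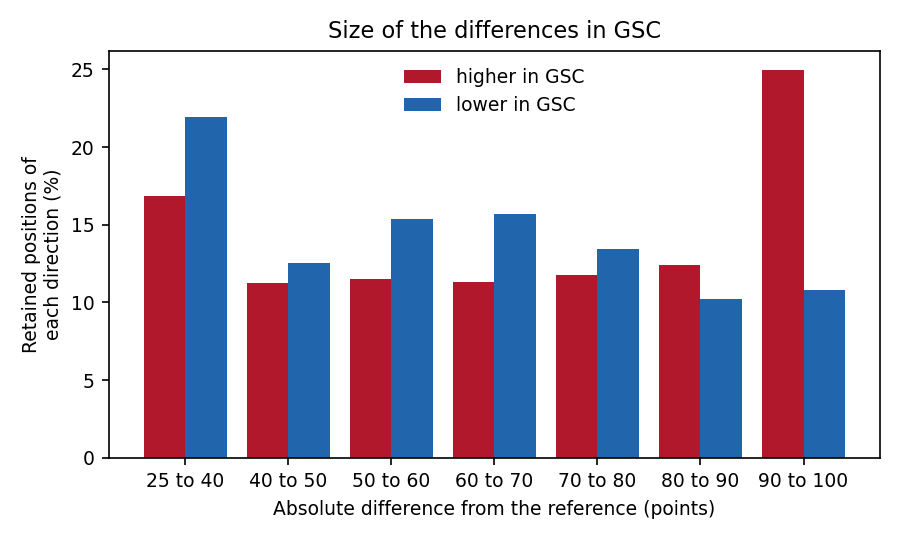
Share of the retained hyper (red) and hypo (blue) positions of GSC, in percent of each direction, by the absolute difference from the reference in points. The class of 90 to 100 points holds 24.9% of the hyper and 10.8% of the hypo positions.

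The share of hyper positions differed between promoters and the rest of the genome. Gene bodies, taken from 500 bp after the start to the end of a RefSeq gene, held 109673 hyper and 10179 hypo positions (91.5% hyper). Sequence outside genes and promoters held 72368 hyper and 5129 hypo positions (93.4% hyper). Promoters, from 2000 bp before to 500 bp after the start, held 12120 hyper and 10843 hypo positions (52.8% hyper). Promoters thus took 6.24% of all hyper and 41.5% of all hypo positions, and bodies 56.5% and 38.9%.

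The strand pattern followed the same map. Of CpGs listed on both strands, 52.9% were hyper on both strands in gene bodies (6850 of 12954) and 61.3% outside genes (3587 of 5847), against 5.65% in promoters (544 of 9630). Opposite directions made up 94.3% in promoters. By distance from the nearest start, opposite CpGs reached 96.4% in the last 500 bp before it and 96.5% in the first 500 bp after it. Their share was 26.5% between 20000 and 10000 bp upstream and 31.6% between 10000 and 20000 bp downstream. The share of hypo among retained positions moved with it, at 59.7% in the first 500 bp after the start and 5.57% between 10000 and 20000 bp downstream.

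**Figure D3:**
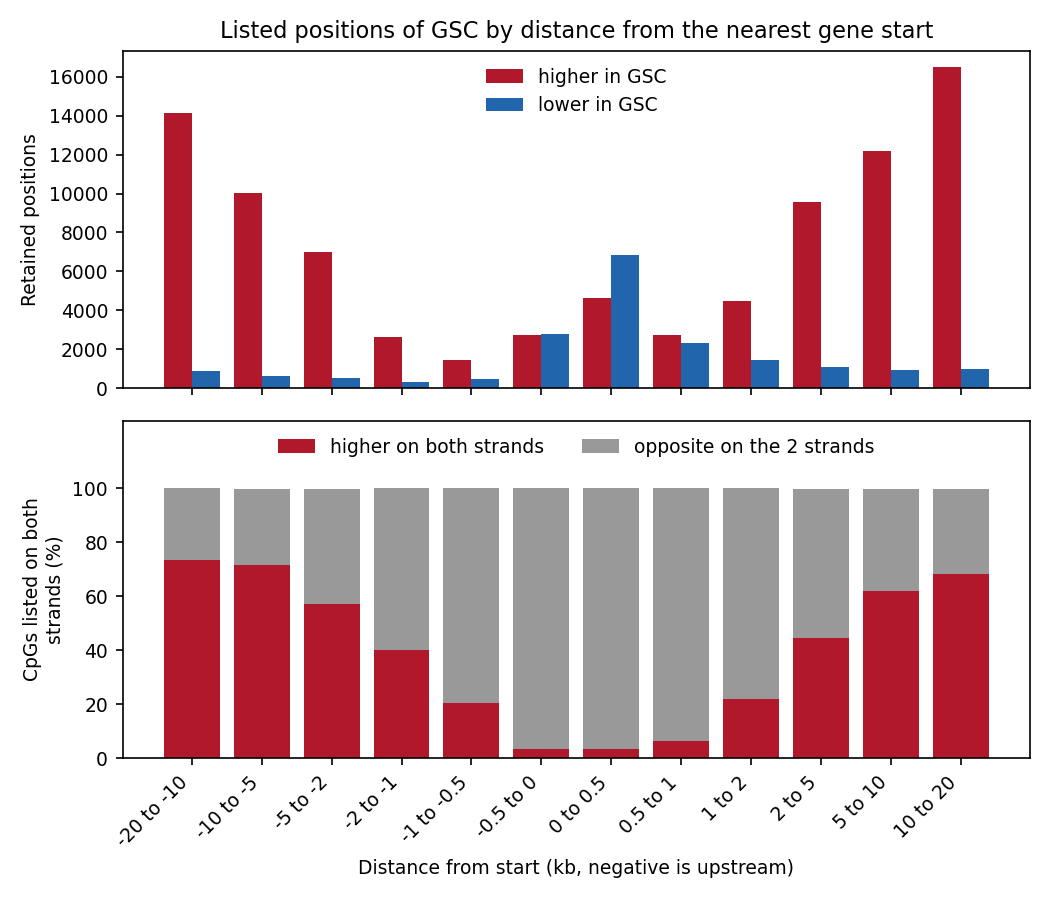
Retained hyper and hypo positions of GSC (upper panel, number) and classes of CpGs listed on both strands (lower panel, percent) by distance from the nearest gene start in kb, negative upstream. Hypo positions outnumber hyper positions from 0.5 kb upstream to 0.5 kb downstream, where at least 96.4% of the CpGs are opposite on their strands.

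The feature column deposited by the authors, where it was filled, placed 42486 hyper and 2458 hypo positions in introns alone and 7106 hyper and 456 hypo positions in exons alone, which is 94.5% and 94.0% hyper. It placed 3694 hyper and 3497 hypo positions in promoters alone (51.4% hyper). The column was filled for 87.8% of positions in plus-strand genes and 24.6% in minus-strand genes, so that positions were assigned to genes by coordinates here.

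The call of a gene body as hyper or hypo required 3 or more retained positions, with 80% or more of them in that direction. Of 11341 bodies with 3 or more positions, 9413 (83%) were called hyper, 313 (2.76%) hypo and 1615 were mixed. The median over the bodies' mean differences was 61.2 points, with quartiles of 47.3 and 72.6 points. Counting CpGs listed on both strands instead, 1868 bodies held 3 or more, and 928 of these (49.7%) held at least 3 that were hyper on both strands, while none (0) held 3 that were hypo on both strands.

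The bodies with the most hyper positions belonged to long genes. Gse1, a coiled-coil protein of a histone deacetylase complex (chr8:120228501-120581383), held 227 hyper and 37 hypo positions with a mean of 45.2 points, and 20 CpGs hyper on both strands. Casz1, a zinc finger factor of heart and neural development (chr4:148804366-148954893), held 169 hyper and 10 hypo positions (49.3 points) and 19 such CpGs. Cux2, a homeobox factor of cortical neurons (chr5:121857962-122050415), held 137 hyper and 4 hypo positions (54.6 points) and 20 such CpGs. Camta1, a calmodulin-binding transcription activator, had 169 hyper and 9 hypo positions, and Wwox, an oxidoreductase at a fragile site, 165 hyper and 4 hypo positions. Zfhx3, a zinc finger homeobox factor (159 hyper, 3 hypo), Prdm16, a determinant of brown fat (127 hyper, 2 hypo), and the cadherins Cdh13 (110 hyper, 7 hypo) and Cdh22 (102 hyper, 8 hypo) followed, with Rbfox3, a splicing factor of neurons (102 hyper, 13 hypo). The means of all these bodies lay between 45.2 points (Gse1) and 62.5 points (Wwox). Counts of positions grow with the length of a gene and with the number of its digested fragments.

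The largest mean differences among bodies with at least 10 positions were close to the possible maximum. Hspa1b, an inducible heat shock protein, had 97.3 points over 10 positions, and Gripap1, a protein of endosome recycling on the X chromosome, 95.3 points over 12. Ddx58, the RIG-I sensor of viral RNA, had 93.3 points over 12 positions. Lnpep, an aminopeptidase, had 92.8 points over 13, and Tll2, a metalloprotease, 92.3 points over 14. All positions of these 5 bodies were hyper.

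Ranked by CpGs that were hyper on both strands, a measure chosen after the values were seen, Cux2, Gse1 and Casz1 were joined by Agap3, a GTPase-activating protein of synapses (19 CpGs), Garem2, Bahcc1 and Cit, the citron kinase (16 each), and Arhgef10l and Wwox (15 each). F2r, the thrombin receptor, and Pou5f1 each held 14 in genes that are far shorter than Wwox or Gse1. In F2r, 35 hyper positions within 321 bp (chr13:95604412-95604732) held all 14 CpGs. Garem2 had 49 hyper positions within 301 bp (chr5:30114597-30114897), between 34.4 and 65.6 points, with 13 CpGs hyper on both strands.

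Most assessed bodies of pluripotency genes were hyper in GSC, as were most assessed bodies of all genes. Of a list of 30, 15 had an assessed body; 14 of these were called hyper and 0 hypo, against 83% hyper and 2.76% hypo over all genes. The median of the means was 67.3 points, against 61.2 points over all genes. Among members with under 3 body positions, Klf2 held 1 hypo position (−71.1 points) and Fgf4 2 (mean −40.2 points), with 0 hyper. Dppa3 and Dppa4 held 1 hyper position each and Nodal and Otx2 2 each, with 0 hypo. The remaining members held none (0). Pou5f1 (chr17:35506032-35510777) held 58 hyper positions and 0 hypo positions between 25.2 and 100 points, with a mean of 61.7 points; 19 were known to be on the C and 20 on the G of a CpG. Its promoter held 16 hyper and 0 hypo positions (73.8 points). Of 4 assessed promoters of the list, 2 were called hyper and 2 hypo, against 41% and 33% of all assessed promoters. The hypo ones were those of Tfcp2l1 (1 hyper, 4 hypo, −18.9 points) and Gbx2 (0 hyper, 4 hypo, −55.8 points). The part of reporter copies in the Pou5f1 values was not tested.

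The other members included factors of the naive state. Esrrb, an orphan nuclear receptor, held 51 hyper and 4 hypo positions (60.7 points). Sall4, a zinc finger partner of Pou5f1, held 26 hyper positions and 0 hypo positions (68.1 points), and Klf4, a reprogramming factor, 22 and 0 (60.9 points). Tbx3, a T-box factor, held 16 and 0 (67.6 points), Zfp42, the Rex1 zinc finger protein, 15 and 0 (78.5 points), and Klf5, a relative of Klf4, 12 and 0 (72.2 points). Nr5a2, a nuclear receptor that binds Pou5f1 regulatory sequence, held 21 hyper and 3 hypo positions (44.9 points). Smaller counts stood at Gdf3 and Lefty2, ligands of the TGF-beta family (7 hyper each, 67.3 and 53.4 points), and at Prdm14, a repressor of differentiation (7 hyper, 42.0 points). At differences of at least 50 points, the means of Klf4 and Prdm14 were 91.8 and 68.1 points. All positions of both bodies are hyper, so by construction this cut can only raise the mean. For Prdm14 it kept the positions at 83.4 and 52.8 points. Tfcp2l1, a factor of naive pluripotency, had 5 hyper body positions (72.7 points), Lin28a, an inhibitor of let-7 processing, 4 (93.9 points), and Lefty1 3 at 100 points each. Gbx2, a homeobox target of LIF signalling, was mixed, with 1 hyper and 3 hypo positions.

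**Figure D4:**
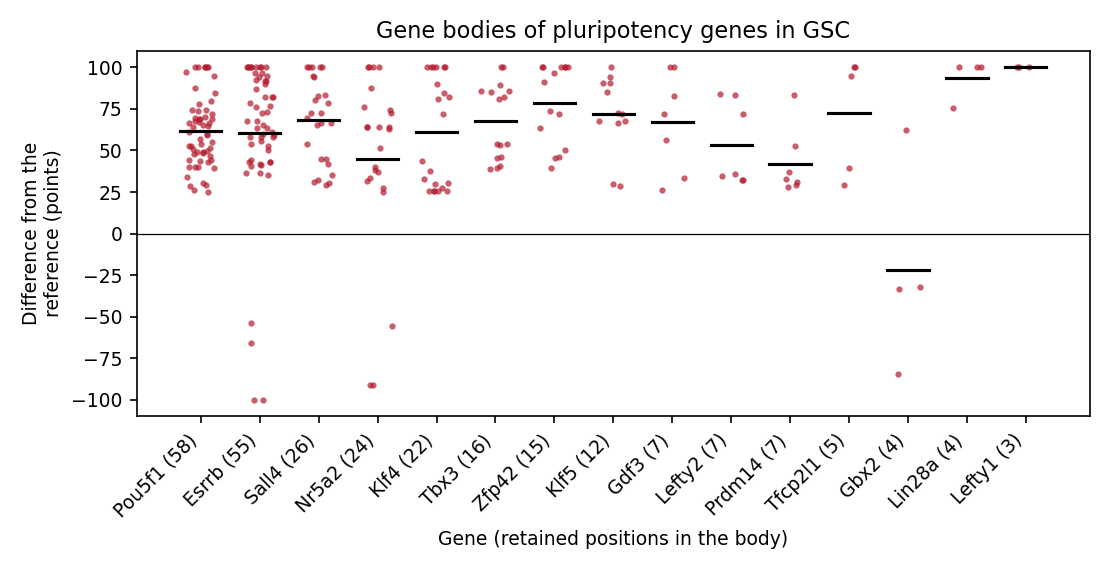
Difference from the reference (points) of each retained position in the bodies of the 15 assessed pluripotency genes in GSC, with the number of positions in brackets and the mean as a black bar. Means lie above 0 in 14 genes, and Gbx2 alone has a mean below 0 (−21.9 points).

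In the pluripotent lines, measured against the same reference, fewer of these bodies were assessed. Of the assessed bodies, 14 of 15 were hyper in GSC, against 1 of 8 in iPSC 1 (79.5% over all genes there), 5 of 9 in iPSC 2 (68.5%), 5 of 8 in gPSC 1 (80.5%) and 6 of 7 in gPSC 2 (88.1%). Hypo bodies numbered 0 in GSC, 2 in iPSC 1 (2.85% over all genes there), 3 in iPSC 2 (3.26%), 0 in gPSC 1 (2.15%) and 1 in gPSC 2 (1.46%). The Pou5f1 body held 58 hyper and 0 hypo positions in GSC, against 4 hyper and 6 hypo in iPSC 1, 13 and 0 in iPSC 2, 9 and 0 in gPSC 1 and 10 and 0 in gPSC 2. Klf4 had 22 hyper positions in GSC, 0 in each iPSC line and 1 in each gPSC line. Tbx3 had 16 hyper and 0 hypo positions in GSC, whereas the lines had 0 hyper positions and 3 (iPSC 1), 2 (iPSC 2), 1 (gPSC 1) and 3 (gPSC 2) hypo positions. Esrrb had 51 hyper positions in GSC and 10, 12, 13 and 17 in iPSC 1, iPSC 2, gPSC 1 and gPSC 2.

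In GSC, 9 of the pluripotency bodies held 32 CpGs that were hyper on both strands, against 0 in each of the 4 lines. Pou5f1 held 14 of them, Esrrb and Tbx3 4 each, Sall4 3, Klf5 and Prdm14 2 each, and Zfp42, Nr5a2 and Lefty2 1 each, so that 18 were left without Pou5f1. Summed over all genes, bodies held 7559 such CpGs in GSC and 1163, 1021, 1242 and 1560 in iPSC 1, iPSC 2, gPSC 1 and gPSC 2. Genes of glutamate receptors and calcium channels, a list of 52 that serves neurons and muscle, held 76 in GSC and 14, 17, 16 and 24 in the lines. Lists with few such CpGs in GSC also reached 0 in lines: Hox genes held 3 in GSC and 0 in iPSC 1, iPSC 2 and gPSC 1, and the list of paternally methylated regions 6 in GSC and 0 in iPSC 1, gPSC 1 and gPSC 2. The list's departure from all genes was not tested, since the libraries share their reference and GSC has 1 library.

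**Figure D5:**
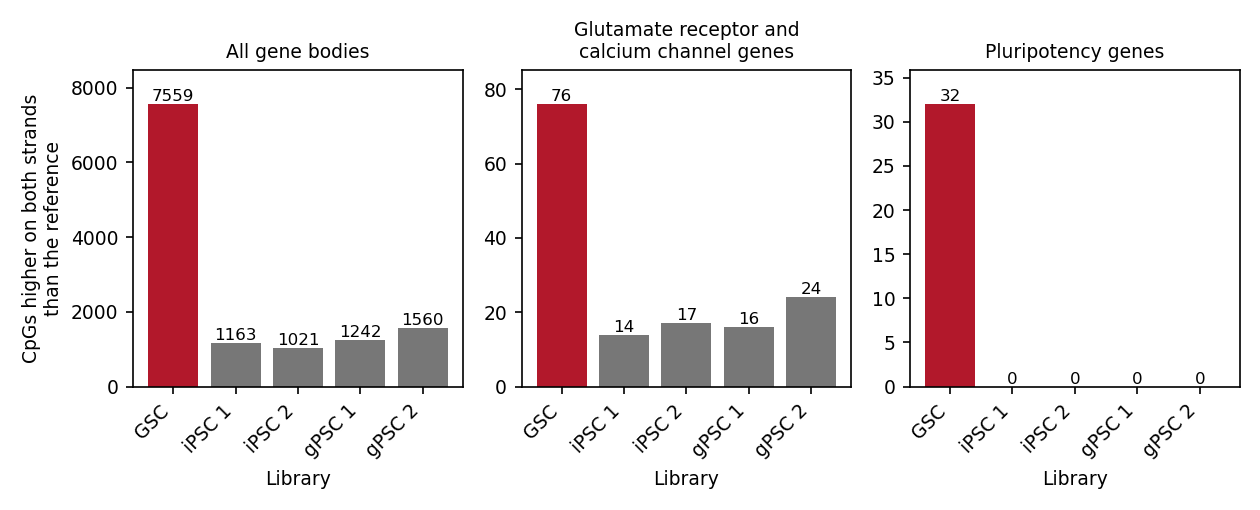
Number of CpGs that were hyper on both strands against the reference in GSC (red) and in the 4 pluripotent lines (grey), over all gene bodies, over bodies of glutamate receptor and calcium channel genes and over bodies of pluripotency genes. The pluripotency genes hold 32 in GSC and 0 in each line, and the other panels are above 0 in all 5 libraries; shorter lists not drawn also reach 0 in some lines.

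Bodies of genes that spermatogonial stem cells use were called hyper about as often as bodies of all genes. Of a list of 26, 18 bodies were assessed; 14 (77.8%) were called hyper, 2 hypo and 2 were mixed, against 83% hyper over all genes, and the median was 60.2 points, against 61.2 points over all genes. Zbtb16 (PLZF), a zinc finger factor of self-renewal, held 43 hyper and 1 hypo positions (66.9 points). Pax7, a marker of rare stem spermatogonia, held 44 hyper and 7 hypo positions (39.0 points), and Lhx1, a GDNF-responsive factor, 29 and 2 (59.9 points). Itga6, an integrin subunit on these cells, held 26 and 0 (64.5 points), and the GDNF receptor genes Gfra1 and Ret 25 and 2 (55.9 points) and 18 and 2 (60.4 points). Cd9, a tetraspanin of the stem cell surface, held 12 and 0 (79.7 points), Bcl6b, a GDNF-responsive repressor, 8 and 0 (77.4 points), and Etv5, an ETS factor of self-renewal, 7 and 0 (96.4 points). The Etv5 body also held 11 opposite CpGs, and its mean was 23.3 points with none left out.

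The hypo bodies of this list were Pou3f1, a POU factor induced by GDNF, with 0 hyper and 16 hypo positions (−60.3 points), and Eomes, a T-box factor of a stem cell subset, with 1 and 8 (−30.9 points). All 6 hypo positions of Eomes on a known strand were C. When only differences of at least 50 points were kept, its mean became 8.93 points. Bodies and promoters parted at Foxo1, a factor of stem cell maintenance, with 3 hyper body positions (90.2 points) and 9 hypo promoter positions (−60.0 points), and at Gfra1, whose 4 hypo promoter positions were all C. The body mean of Foxo1 was 54.8 points with none left out. Of the 3 promoters of the list that were assessed, these and Itgb1, an integrin subunit (7 hypo, −85.0 points), were all called hypo, where 33% of all assessed promoters were.

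In the lines, Gfra1 had counts near those of GSC, and Zbtb16 had lower ones. Over all retained positions, hyper ones numbered 194161 in GSC and 119192 in the mean of the lines. Zbtb16 held 43 hyper positions in GSC and 32, 29, 34 and 33 in iPSC 1, iPSC 2, gPSC 1 and gPSC 2. Its CpGs hyper on both strands numbered 2 in GSC and 0 in each line. Gfra1 held 25 in GSC and 26, 23, 22 and 24 in the same lines. Lhx1 held 29 in GSC and 5, 8, 4 and 4 in the lines, and Pou3f1 held 16 hypo positions in GSC and 2, 1, 2 and 7 in the lines.

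The shares of hyper bodies among markers of other cells of the testis and of fibroblasts lay near or below the 83% over all genes. Of 10 assessed bodies of testis somatic genes, 8 (80%) were hyper and 0 hypo, among them Fshr, the receptor of Sertoli cells for FSH (25 hyper, 0 hypo, 75.1 points), and Wt1, a factor of Sertoli cells (20 and 2, 63.1 points). The promoters of Lhcgr, the luteinizing hormone receptor (13 hyper, 45.5 points), and Insl3, a hormone of Leydig cells (6 hyper, 51.8 points), were hyper. Of 13 fibroblast bodies, 10 (76.9%) were hyper and 0 hypo. Genes of meiosis and germ cells had 9 hyper (69.2%) and 0 hypo bodies of 13, against 83% hyper over all genes, with a median of 57.2 points; Spo11, the enzyme of meiotic DNA breaks, held 20 hyper positions and 4 CpGs hyper on both strands.

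Developmental regulators had many mixed bodies. Of 15 assessed Hox bodies, 4 (26.7%) were hyper, 5 (33.3%) hypo and 6 mixed, against 83% hyper and 2.76% hypo over all genes, and the median was 3.10 points, against 61.2 points. Hoxb3 held 35 hyper and 3 hypo positions (45.1 points), and Hoxa5 2 and 9 (−16.3 points). Hoxc4 held 1 and 5 (−43.4 points), and Hoxb2, Hoxd4 and Hoxd12 3 hypo positions each and 0 hyper (−69.0, −75.3 and −69.9 points). The Hox bodies held 3 CpGs hyper on both strands, 0 hypo on both and 77 opposite. Some Hox bodies overlap, so they are not independent and a position can count more than once. All 9 positions of Hoxb4 also lie in Hoxb3, all 11 of Hoxa5 in Hoxa3 and all 3 of Hoxd4 in Hoxd3. With none left out, the mean of Hoxc4 was −17.6 points. The mean of Hoxa5 became 90.0 points when differences under 50 points were dropped. That of Hoxd1, 36.9 points with 5 hyper and 1 hypo positions, became −89.5 points at a q of at most 0.001. This Hoxd1 value equals the lowest single difference in its body, the 1 hypo position.

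Transcription factors of neural fate had 12 hyper (37.5%), 2 hypo (6.25%) and 18 mixed bodies of 32 (median 23.0 points). Those of mesoderm and endoderm had 23 hyper (53.5%), 4 hypo (9.30%) and 16 mixed of 43 (41.3 points), where all genes had 83% hyper and 2.76% hypo bodies. The hypo bodies were Neurod2 and Pax3 in the neural list and Sox17, an endoderm factor (0 hyper, 8 hypo, −46.1 points), Tbx1 (2 and 12, −47.6 points), Foxc2 (1 and 7, −34.0 points) and Hand2, a heart factor (0 and 5, −32.5 points), in the other. Both lists held 84 opposite CpGs each, beside 11 and 23 that were hyper on both strands. CpGs hypo on both strands numbered 0 in the neural list and 1 in the other, and the latter lay in Hand2. Few of these opposite CpGs lay in the hypo bodies: Hand2 held 7, Tbx1 3, Neurod2 and Pax3 1 each, and Sox17 and Foxc2 0. With none left out the mean of Hand2 was −8.90 points, and at a q of at most 0.001 that of Tbx1 was −7.38 points. At differences of at least 50 points Sox17 had −87.5 and Foxc2 −51.9 points. These equal the lowest single difference in each body, so they do not describe the body as a whole.

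Collagens, ion channels and Wnt pathway genes are set against the 83% hyper and 2.76% hypo bodies over all genes. All 38 assessed collagen bodies were hyper, with a median of 64.0 points, against 61.2 points over all genes, and 34 CpGs hyper on both strands; Col23a1 held 46 hyper positions (57.1 points) and Col4a1, a subunit of basement membranes, 37 hyper and 2 hypo with 6 such CpGs. Of 50 bodies of glutamate receptor and calcium channel genes, 44 (88%) were hyper and 1 hypo, led by Grik3, a kainate receptor subunit (69 hyper, 0 hypo, 66.5 points). Of 49 Wnt pathway bodies, 39 (79.6%) were hyper and 2 hypo; Tcf7l1, the repressing TCF of pluripotent cells, held 59 hyper and 0 hypo body positions (76.0 points) beside 10 hypo promoter positions (−53.8 points), of which 8 were G and none (0) C. Tcf7l2, another TCF, had 35 hyper positions with 84.1 points, and the hypo bodies were the receptors Fzd8 (6 positions) and Fzd1 (3 positions).

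Of 22 bodies of DNA methylation and chromatin silencing genes, 18 (81.8%) were hyper and 0 hypo, against 83% and 2.76% over all genes. The oxidases that start demethylation were among them: Tet3 held 43 hyper and 2 hypo positions (51.5 points) and 7 CpGs hyper on both strands, and Tet1 35 and 0 (71.4 points). The promoter of Dnmt3l, the cofactor of de novo methylation in germ cells, held 4 hyper positions (67.0 points). Hypo promoters included Suz12, a Polycomb subunit (14 hypo, −48.5 points), and Uhrf2, a ring finger protein related to Uhrf1 (9 hypo, −76.5 points).

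The share of hyper bodies among imprinted genes was near that of all genes (83%). Of 19 assessed bodies in the list of 30 genes at maternally methylated regions, 15 (78.9%) were hyper, 0 hypo and 4 mixed. Peg10, derived from a retrotransposon, held 11 hyper positions (68.0 points), and Kcnq1 34 hyper and 3 hypo (62.4 points), among them the 3 positions of its antisense RNA Kcnq1ot1. Nnat, a membrane proteolipid, held 8 hyper promoter positions (51.7 points), including 2 CpGs hyper on both strands. All 6 hyper promoter positions of Igf2r were C, and 4 CpGs of that promoter were opposite. The body of its antisense RNA Airn spans this promoter and counts its positions again among 7 hyper positions, and the mean of Airn moved to 34.1 points, against 73.2 points, with none left out. The promoter of Grb10 held 15 opposite CpGs, and 1 hyper and 2 hypo positions were retained. Bodies of the list of genes at paternally methylated regions were hyper in 7 of 8 cases (87.5%, against 83% over all genes), with Dlk1 at 11 hyper positions (45.8 points, 4 CpGs hyper on both strands) and Rasgrf1 at 5 hyper and 1 hypo (30.0 points). The mean of Dlk1 was 69.7 points at differences of at least 50 points, a cut that can only raise it because all its positions are hyper. The mean of Rasgrf1 was 16.6 points at a q of at most 0.001. Textbook imprints of male germ cells lack methylation at the maternally methylated regions. Of the list at those regions, 0 of 19 bodies and 0 of 4 promoters were called hypo, against 2.76% of bodies and 33% of promoters over all genes. The list is too short to set these counts apart from those shares, and gene bodies and promoters are wider than the regions.

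Hypo gene bodies were few, and their hypo positions with a known strand lay mostly on 1 strand. Marcks, an actin-binding substrate of protein kinase C, held 0 hyper and 34 hypo positions (−65.4 points), Rgmb, a BMP co-receptor, 8 and 32 (−27.7 points), and Wnk2, a kinase, 6 and 29 (−31.2 points). Gabpa, an ETS factor, held 0 and 27 (−48.8 points), and all 17 on a known strand were G. Rdx, the radixin linker of membrane and actin, held 0 and 23 (−73.5 points), and Sav1, a scaffold of the Hippo pathway, 0 and 12 (−80.1 points), with 11 of those on a known strand G and 1 C. Sft2d3 had the largest negative mean, −90.0 points over 14 hypo positions, and the 12 on a known strand were C. None of these bodies held a CpG listed as hypo on both strands (0 each), but Rgmb and Rdx have 0 hypo positions on a known strand and Marcks 1, so that none could be found there. The mean of Wnk2 was −48.2 points at differences of at least 50 points.

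Over all bodies called hypo with at least 3 positions on a known strand, 82.1% (64 of 78) had all of them on 1 strand, against 4.59% (102 of 2221) of bodies called hyper. Neighbours of opposite direction had been left out, so the retained positions of a CpG always share their direction. The shares of bodies on 1 strand therefore partly restate the counts of CpGs listed on both strands and are no separate result. Of 3174 assessed promoters, 1301 (41%) were called hyper, 1046 (33%) hypo and 827 were mixed. Among those with known strands, 41.8% of hyper promoters (180 of 431) and 81.9% of hypo promoters (349 of 426) had all positions on 1 strand. At least 3 CpGs hyper on both strands were held by 50 (3.96%) of the 1262 promoters with at least 3 CpGs listed on both. In the 592 RefSeq windows of 300 bases with at least 3 C and 3 G listed, 518 (87.5%) had opposite directions on their strands, 23 (3.89%) were hyper and 6 (1.01%) hypo on both.

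Body and promoter could differ in direction. In 397 genes the body was hyper and the promoter hypo, in 446 both were hyper, in 15 both were hypo, and in 7 the body was hypo and the promoter hyper. Hivep1, a zinc finger transcription factor, held 32 hyper and 1 hypo body positions (55.3 points) and 24 hypo promoter positions (−84.8 points). Its body held 7 CpGs hyper on both strands, whereas the 11 promoter positions on a known strand were all C. Ptprf, a receptor tyrosine phosphatase, held 57 hyper and 1 hypo body positions (55.0 points) and 21 hypo promoter positions with 1 hyper (−69.3 points), of which 17 were C and 0 G. Kif13a, a kinesin, held 42 and 1 in the body (77.5 points) and 17 hypo promoter positions (−62.8 points), of which 12 were G and 0 C. Atp2b1, whose promoter window is printed above, held 17 hyper and 1 hypo body positions (66.2 points). In the reverse arrangement, Arrdc3, an arrestin-like protein, held 4 hyper and 19 hypo body positions and 5 hyper promoter positions, and Tymp, thymidine phosphorylase, 6 hypo body and 4 hyper promoter positions.

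Runs of at least 10 retained positions in 1 direction, with gaps of at most 100 bp, numbered 1124 hyper and 298 hypo. Hyper runs had a median span of 172 bp and a median mean of 52.5 points; 694 lay in gene bodies, 358 outside genes and 72 (6.41%) in promoters. Hypo runs had a median span of 89 bp and a median mean of −60.8 points, and 161 of them (54.0%) lay in promoters. CpGs hyper on both strands occurred in 837 hyper runs (74.5%), and CpGs hypo on both strands in 0 hypo runs. Where at least 5 positions of a run had a known strand, 96.8% of hyper runs (666 of 688) and 3.82% of hypo runs (5 of 131) held both C and G. With opposite neighbours left out, the strand shares of runs also partly restate the counts of CpGs listed on both strands.

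The longest hyper run lay in Hcn2, a pacemaker channel of heart and neurons (chr10:79735263-79735709), with 55 positions between 25.2 and 100 points and a mean of 70.2 points. Runs in Garem2, in Scaf1, a splicing-associated factor (chr7:45007667-45008063, 37 positions, 59.7 points), at the Papolb promoter (chr5:142529845-142530207, 36 positions, 58.2 points) and in F2r followed. The longest hypo run lay in Rgmb (chr17:15825870-15826205) with 32 positions between −64.8 and −32.9 points, and the next in Rdx (chr9:52048539-52048676) with 23 positions between −87.5 and −50.0 points. Runs of 20 hypo positions lay at the promoters of Ptprf and Arl8a, a lysosomal GTPase, and in the bodies of Arhgef33 and Wnt9b, a Wnt ligand. Their positions on a known strand were 17 C and 0 G in Ptprf and in Arhgef33, 0 C and 19 G in Arl8a, and 0 C and 8 G in Wnt9b.

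The GSC library had more listed positions than any pluripotent line. Retained hyper positions numbered 194161 in GSC, against 119192 ± 9086 in the lines (SD, n = 4, 2 iPSC and 2 gPSC), which is 1.63 times as many (two-sided exact permutation p = 0.2, which is as low as 1 library against 4 can go; adjusted p = 0.286 over 10 measures). Hypo positions numbered 26151 in GSC and 16187 ± 5976 in the lines (SD, n = 4, exact p = 0.2), with 24610 in iPSC 2. This excess did not extend to large differences in every line. At differences of at least 50 points the exact permutation p was 0.4. Hypo positions at 90 points or more numbered 2820 in GSC and 6956 in iPSC 2, against 1302, 1902 and 1275 in iPSC 1, gPSC 1 and gPSC 2. The share of hyper positions, 88.1% in GSC and 88.1% ± 3.92 in the lines (SD, n = 4), differed by 0.0351 percentage points, a difference that changed sign under other settings (exact p = 1, in a design where no p under 0.2 is possible).

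CpGs hyper on both strands differed most, with 10981 in GSC and 2278 ± 368 in the lines (SD, n = 4; exact p = 0.2), a ratio of 4.82. CpGs hypo on both strands numbered 27 in GSC and 22.3 ± 2.99 in the lines (SD, n = 4; exact p = 0.4). The median hyper difference was 69.1 points in GSC and 55.7 ± 4.45 points in the lines (SD, n = 4; exact p = 0.2). Where the difference was 100 points, so that p is set by read number, −log10 p had a median of 3.81 in GSC and 3.48, 3.70, 3.48 and 3.30 in iPSC 1, iPSC 2, gPSC 1 and gPSC 2, and the part of read depth in the counts was not tested.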

How the data were processed

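DNA of cultured mouse lines was isolated with a column kit and a company made the libraries, per the labels' protocols. Bismark, Bowtie2, methylKit and GATK, and the builds GRCm38 and mm10, are named without role or version, per the submitters' processing notes. Calling settings and coverage minimums are not stated there. The values deposited by the authors are, per position, a p-value, a q-value and a methylation difference (a score in percentage points, library minus reference). The tables hold only positions with q up to 0.01 and differences from 25 points in size.

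Positions were assigned to 34627 genes of the RefSeq GRCm38.p6 table by coordinates, and not by the deposited feature column, which was filled mostly in plus-strand genes. Strands came from the RefSeq promoter table for 27025 genes. The other 7602 had 500 bp trimmed at both ends and no promoter window. CpGs were recognised as neighbouring listed positions over the 5 libraries, correctly for 8796 of 8807 CpGs (99.9%) that lie in promoter sequences. Within those promoter sequences the bases also gave the strand. Elsewhere, a position whose neighbour was never listed has no known strand. Printed promoter sequences are RefSeq's. Means over a gene are means of the authors' differences. The calling rules were checked on simulated data with planted hypo bodies and planted CpG pairs. That check covers whether the rules ran as written and not how often a call is wrong. Libraries were compared by exact permutation tests with Benjamini-Hochberg adjustment in Python 3.11.15, pandas 2.3.3, numpy 2.4.6 and statsmodels 0.14.6.

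Named genes are, per direction, the 10 bodies with the most positions and the 5 with the largest mean, up to 6 genes per arrangement of opposite body and promoter, the 5 longest runs, up to 4 called members per list and direction, and all assessed members of the imprint, stem cell and pluripotency lists, without predicted genes in the rankings. Further list members, promoters of listed genes and genes ranked by CpGs on both strands were chosen after their values were seen. The members, the 15 lists and the rule were chosen with earlier results of these data known. Alternatives were another distance from opposite positions, thresholds of difference, q, positions and share, the deposited feature column, leaving out lines and, added after seeing the data, CpGs with both strands in 1 direction.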

Additional observations from a re-analysis of the deposited data

Results flagged for a closer look

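The mitochondrial genome held listed positions in GSC, which count in the totals above but were not set apart there. Of these, 26 were lower and 11 higher than the reference. After removal of neighbours with opposite directions, 0 higher and 15 lower ones remained. Without that removal, the lines had 0 higher and 12 lower (iPSC 1), 19 and 20 (iPSC 2), 4 and 9 (gPSC 1) and 8 and 5 (gPSC 2). They were singled out as signal outside the main measurement, with no control library to set them against.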

How the results depend on the processing

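With 1 GSC library, values rest on that library, and unlisted positions, depth and levels limit every count. Hypo positions in GSC numbered 43836 with none left out, 17131 at differences of at least 50 points and 15332 at a q of at most 0.001. Hyper promoters fell to 813 at 50 points and hypo promoters to 583 at that q. With at least 5 positions for a call, 588 promoters were hyper and 665 hypo; with at least 10, 127 and 220, and 3425 bodies were hyper and 80 hypo. Hypo bodies numbered 196 when all positions had to share 1 direction. The deposited feature column, planned as the main assignment and used as the alternative, gave 3125 hyper and 104 hypo bodies in plus-strand genes. Requiring both strands of a CpG in 1 direction, added after seeing the data, left 21962 hyper and 54 hypo positions, 928 hyper and 0 hypo bodies, and 50 hyper and 0 hypo promoters; by construction fewer positions can count. For the others the cause was not tested.

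The GSC share of hyper positions minus the lines' mean turned to −0.0131 percentage points when opposite positions within 50 bp were left out, −0.280 at the stricter q and −1.69 without iPSC 2, over a leave-one-out range of −1.69 to 1.49. Leaving out each line, the excess of GSC ranged from 70972 to 78324 hyper and from 8087 to 12772 hypo positions. Of 618 alternative means of named bodies, 590 moved by less than 1 SD over positions, 25 by more, and 3 reversed. The reversed ones were Eomes (8.93 points) and Hoxa5 (90.0 points) at 50 points, and Hoxd1 (−89.5 points, its 1 hypo position) at the stricter q. No paired analysis was possible because GSC has 1 library and no replicate number shared with the lines.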
